A study of Mus musculus with 23 samples.

Results

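The 9 myelin genes Mbp, Mag, Mog, Mobp, Cnp, Mal, Cldn11, Ugt8a and Fa2h were followed across bulk RNA-seq libraries of whole mouse hippocampus. They were taken by name from a table of 55335 genes, and each name matched 1 row. The table holds 23 libraries, each of 1 female mouse, in 6 groups. Untreated mice of 8 months were wild type (WT-8M, n = 4) or 3xTg (3xTg-8M, n = 4). Mice of 10 months had received an intracerebroventricular infusion for 28 days. They were given vehicle with 0.8% DMSO (WT-D, n = 4, and 3xTg-D, n = 4) or 80 µM of an inhibitor of stearoyl-CoA desaturase in that vehicle (WT-S, n = 3, and 3xTg-S, n = 4). 3xTg mice model Alzheimer's disease. Their alleles include human APPSwe and tauP301L transgenes driven by the neuronal Thy1.2 element. The WT mice were strain controls (labelled C57BL/6J x 129S1) and not littermates, so the transgenes and the strain background cannot be told apart in any comparison of 3xTg with WT. Age, surgery and infusion likewise separate the cohorts of 8 and 10 months together.

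By role, the genes fall into 4 groups (positions in GRCm38). The basic and compact myelin proteins are Mbp (chr18:82475146-82585637, + strand), which binds the cytoplasmic faces of the membrane, Mobp (chr9:120149707-120181484, + strand), a small basic protein of compact myelin, and Mal (chr2:127633226-127656695, - strand), a raft protein of membrane traffic. Cnp (chr11:100574904-100591729, + strand), which keeps cytoplasmic channels open, and Mag (chr7:30899176-30914873, - strand), the adhesion receptor facing the axon, belong to the non-compact loops. Mog (chr17:37010743-37023398, - strand) lies on the outermost surface, and Cldn11 (chr3:31149920-31164324, + strand) forms the tight junctions of the sheath. Ugt8a (chr3:125865271-125938619, - strand) makes galactosylceramide, and Fa2h (chr8:111345135-111393824, - strand) adds the 2-hydroxyl group to its fatty acid.

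Myelin is the membrane that oligodendrocytes wrap around axons in the brain, and it lets action potentials travel fast. Its compact layers are held together by basic proteins on the cytoplasmic face, its inner and outer loops carry adhesion proteins and tight junctions, and its lipid is rich in cholesterol and in galactolipids with 2-hydroxylated fatty acids. Stearoyl-CoA desaturases make monounsaturated fatty acids, which are also abundant in myelin. Most of the genes are expressed late in the lineage, after a precursor has become a myelinating cell, and their transcription depends on the factors SOX10 and MYRF.

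The bases upstream of 3 of the genes are shown, chosen by the letters they hold. Mobp has the most SOX letters, Mag has letters of both factors and Cldn11 has neither. The windows are those of RefSeq (GRCm38.p6, 5′ to 3′ on the gene's strand, limited to bases outside the annotated gene). They lie at chr9:120149492-120149706 (+ strand), chr7:30914874-30915113 (- strand) and chr3:31149670-31149919 (+ strand). Capitals mark ACAAAG or ACAATG, searched for SOX factors, and CTGGCAC or CTGGTAC, searched for MYRF, on both strands, so that CTTTGT is ACAAAG read on the other strand.
Mobp: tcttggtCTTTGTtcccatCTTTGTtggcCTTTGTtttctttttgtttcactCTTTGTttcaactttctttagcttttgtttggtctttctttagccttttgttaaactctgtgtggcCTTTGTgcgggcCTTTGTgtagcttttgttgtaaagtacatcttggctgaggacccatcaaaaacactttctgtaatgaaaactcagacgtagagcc
Mag: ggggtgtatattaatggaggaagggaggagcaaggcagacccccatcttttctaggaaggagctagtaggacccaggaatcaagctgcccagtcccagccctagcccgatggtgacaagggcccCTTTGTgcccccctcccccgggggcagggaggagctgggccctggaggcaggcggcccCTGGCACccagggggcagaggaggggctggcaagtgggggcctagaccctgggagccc
Cldn11: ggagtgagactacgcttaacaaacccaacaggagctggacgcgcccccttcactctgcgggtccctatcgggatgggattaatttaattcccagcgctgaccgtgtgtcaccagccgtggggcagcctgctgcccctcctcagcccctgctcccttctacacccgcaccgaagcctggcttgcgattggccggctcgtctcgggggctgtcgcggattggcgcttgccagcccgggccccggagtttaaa
The Mobp window held 6 matches to the SOX letters. The Mag window held 1 SOX match and 1 MYRF match. The Cldn11 window held none, nor did those of Mal and Ugt8a. RefSeq windows were used for 7 of the 9 genes, 9 windows of 250 bases in all. Mbp was left out by choice, and no window was at hand for Fa2h. Of the 3 windows of Mag, 2 overlapped and the other lay inside the annotated gene. Of the 9 windows, 4 held SOX letters (Mobp, Cnp and 2 of Mag) and 4 held MYRF letters (Mog, Cnp and 2 of Mag). None held the E-box letters CAGCTG or CAGATG. Among 32851 promoter windows of the same length, 25.2% held SOX letters, 0.49% held them 3 or more times, 5.9% held MYRF letters and 25.5% held the E-box letters. A match is a run of letters and was not tested as a binding site.

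The libraries held 12802267 to 36686413 gene counts at 8 months and 12992547 to 17575615 at 10 months. Every myelin gene was read at least 222 times in every library, so counting alone gave a coefficient of variation of at most 6.71%. Levels are given as CPM, gene counts per 1000000 counts of the library after scaling by the trimmed mean of M-values, and errors and intervals are between mice. The 35 genes of a mature oligodendrocyte list were all detected in each library. Of 6 genes listed for Schwann cells, which make peripheral myelin, Pmp2 reached at most 0.0742 CPM, Ncmap 0.643 CPM, Prx 0.719 CPM and Egr2 4.82 CPM, whereas Drp2 ran from 64.0 to 84.6 CPM and made up most of the list's sum of 67.4 to 87.1 CPM. In bulk tissue, fewer oligodendrocytes and less myelin RNA in each of them cannot be told apart.

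Per kilobase of exon, Mbp was the most abundant of the genes, with a median of 266 CPM per kb over the 23 libraries. Mobp followed at 174 CPM per kb and Cnp at 109.6 CPM per kb. Mal, Cldn11 and Mag lay at 76.8, 64.4 and 50.4 CPM per kb. Mog was lower, at 28.6 CPM per kb, and the enzymes Ugt8a and Fa2h were lowest, at 14.5 and 11.2 CPM per kb. The structural genes therefore exceeded the lipid enzymes in level per length, and the following values are CPM per gene, compared only within a gene.

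**Figure D1:**
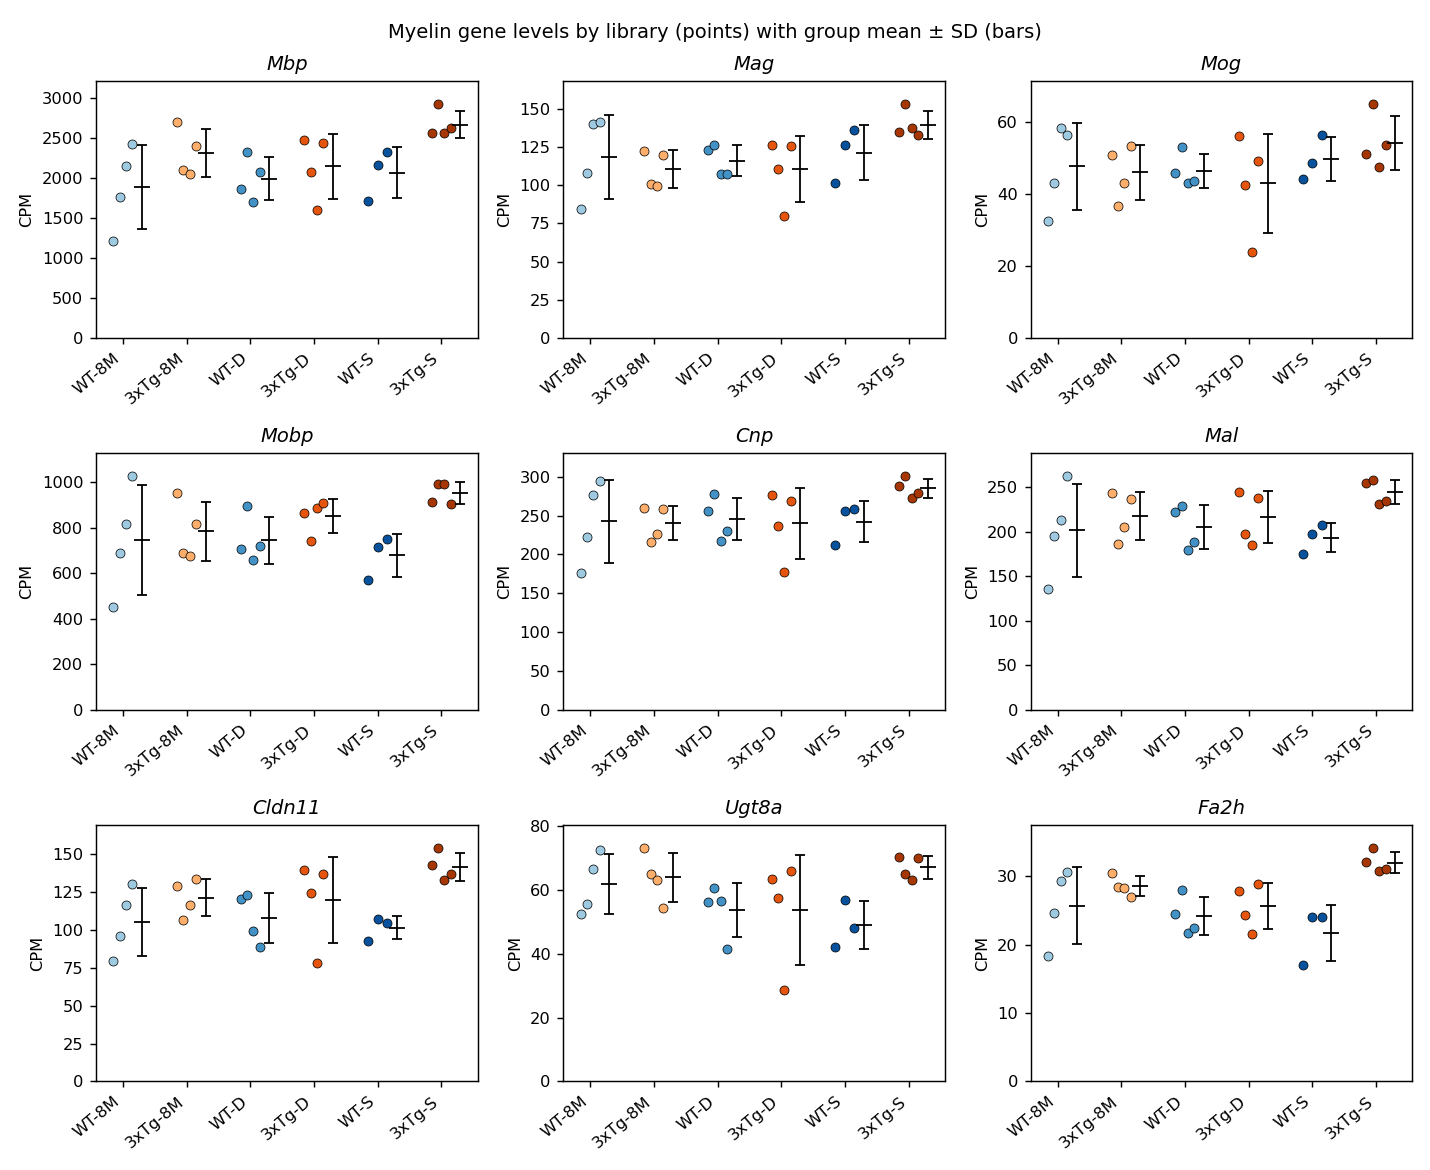
Level of each of the 9 myelin genes in CPM (y axes, from 0) in each of the 23 libraries (points), by group (x axes), with the group mean and SD beside the points. The 3xTg-S group has the highest mean for each gene, and 1 library of 3xTg-D and 1 of WT-8M lie low for most genes.

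In the mean over libraries, 3xTg-S was the highest of the 6 groups for 9 of the 9 genes. For Fa2h its lowest library (30.8 CPM) lay above the highest of the next group in the order, 3xTg-8M (30.5 CPM). That was the only 1 of 45 neighbouring pairs in the order of groups whose ranges did not overlap, so the order of the other neighbours was within the spread between mice. The remaining groups had no common order. Within 10 months, the lowest 3xTg-S library exceeded the highest WT-D library for 7 genes, the highest WT-S library for 7 genes and the highest 3xTg-D library for 3 genes. Of all genes tested, 5.45%, 5.36% and 3.89% were higher without overlap in these comparisons.

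At 8 months, no difference between 3xTg and WT was called in the 9 genes. Mbp was 1888 ± 529 CPM in WT-8M and 2310 ± 298 CPM in 3xTg-8M (SD, n = 4 each), a log2 fold change of 0.30 ± 0.17 (SE) at an adjusted p of 0.396 (edgeR quasi-likelihood test). The single WT-8M libraries spanned 1211, 1757, 2154 and 2431 CPM, and the 3xTg-8M libraries 2055, 2096, 2395 and 2695 CPM, so that the groups overlapped. Over the 9 genes the log2 fold change ran from -0.09 (Mag) to 0.30 (Mbp) with a median of 0.08, against 0.0060 over all genes tested, and 6 were positive. No gene was called at adjusted p under 0.05, where 2.58% of all genes tested were, and none reached an unadjusted p under 0.05. By DESeq2's likelihood ratio test 0 were called as well. The direction rested on single mice, because without WT-8M replicate 1 the median was -0.04 and without WT-8M replicate 4 it was 0.26.

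Under vehicle at 10 months, no strain difference was called in these genes either. The largest change was that of Mobp, at 851 ± 75.2 CPM in 3xTg-D against 744 ± 105 CPM in WT-D (SD, n = 4 each), a log2 fold change of 0.20 ± 0.09 (SE) at an adjusted p of 0.395 (edgeR). The median of the 9 was 0.08, 6 of the 9 were positive, and 0 were called by edgeR or DESeq2 where 1.39% of all genes tested were called by edgeR. At an unadjusted p under 0.05, 0 passed in edgeR and 1 in DESeq2. The 3xTg-D libraries were uneven. Mog read 56.2, 42.5, 24.02 and 49.2 CPM in them and Ugt8a read 63.6, 57.5, 28.6 and 65.9 CPM. A single mouse, 3xTg-D replicate 3, gave the low value each time. Mobp did not follow, at 863, 742, 888 and 911 CPM in the same order of mice. Without that library all 9 log2 fold changes were positive, with a median of 0.18, and 0 were called. The same library stood apart in summed marker levels. It was the highest of its group in thalamic genes (216 CPM against 167 to 177 CPM), meningeal genes (719.98 CPM against 358 to 527 CPM) and genes of striatum and septum (61.4 CPM against 49.95 to 52.8 CPM). It was the lowest in hippocampal neuron genes (1135 CPM against 1227 to 1387 CPM) and precursor genes (787 CPM against 874 to 948 CPM). Such sums weigh the abundant genes of a list most. As a mean over genes of log2 CPM relative to the group mean, 3 lists kept this order. They were the thalamic (0.31), the striatal and septal (0.28) and the precursor list (-0.12). The meningeal list did not (0.04 against 0.48 in replicate 2). Nor did the hippocampal neuron list (-0.038 against -0.045 in replicate 1). By the same mean, 3xTg-D replicate 3 was the lowest of its group in microglial genes (-0.40 against 0.015 to 0.35). It was also the lowest in mature (-0.39 against 0.027 to 0.19) and newly formed oligodendrocyte genes (-0.22 against 0.014 to 0.14). At 8 months, WT-8M replicate 1 had the highest thalamic sum of its group (215 CPM against 191 to 193 CPM). Its hippocampal neuron sum was the lowest (1165 CPM against 1215 to 1445 CPM). Unlike in 3xTg-D replicate 3, its precursor sum was the highest (966 CPM against 872 to 933 CPM). As a mean over genes, its hippocampal neuron list stayed the lowest (-0.17). Its thalamic list was then the lowest as well (-0.093 against 0.026 to 0.033). So were its mature oligodendrocyte (-0.30 against -0.015 to 0.22) and microglial lists (-0.20 against 0.032 to 0.14). The part of these differences in the low myelin values was not tested.

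The test of whether the strain difference changed between the cohorts also called 0 of the 9 genes (0.0621% of all genes tested were called), and 0 reached an unadjusted p under 0.05. The difference between log2 fold changes (10 months minus 8 months) ran from -0.18 for Mbp to 0.12 for Mobp with a median of -0.05. The smallest adjusted p was 0.812 (edgeR). The sign of the median rested on single mice, because it was 0.08 without WT-8M replicate 1 and 0.10 without 3xTg-D replicate 3, with 8 and 7 genes positive against 2 in the full fit.

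Of the comparisons of the inhibitor with vehicle, the one in 3xTg mice had 9 of 9 positive log2 fold changes, and none passed correction. Fa2h showed the smallest p. It read 27.9, 24.3, 21.5 and 28.8 CPM in 3xTg-D and 32.1, 34.1, 30.8 and 31.0 CPM in 3xTg-S. The groups did not overlap, and the log2 fold change was 0.32 ± 0.09 (SE, unadjusted p = 0.00302, adjusted p = 0.378, edgeR). Mbp read 2470, 2077, 1594 and 2438 CPM in 3xTg-D and 2566, 2921, 2563 and 2624 CPM in 3xTg-S. For Mag the values were 126, 111, 80.1 and 126 CPM in 3xTg-D and 135, 153, 138 and 133 CPM in 3xTg-S. The groups did not overlap for Mbp and Mag either, although the highest vehicle library lay close below the lowest treated library for both genes.

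For the other 6 genes the 3xTg-S and 3xTg-D libraries overlapped. The log2 fold changes of the 9 genes ran from 0.16 (Mobp) to 0.34 (Mog) with a median of 0.31, against -0.0021 over all genes tested. An unadjusted p under 0.05 was reached by 5 genes, Mbp, Mag, Mobp, Cnp and Fa2h, beside the 5.65% of all genes tested that were higher at that level. The groups did not overlap for 3 genes, against 3.89% of all genes. None was called, and 0% of all genes were called in this comparison; DESeq2 called 0 of the 9 and 15 genes in all. Adjusted p-values ran from 0.378 to 0.528 (edgeR). Without 3xTg-D replicate 3, the library low in Mog and Ugt8a, the median fell to 0.14, and each of the 9 log2 fold changes stayed positive.

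In WT mice the log2 fold changes of inhibitor against vehicle lay on both sides of 0. Mobp was 744 ± 105 CPM in WT-D (n = 4) and 678 ± 96.1 CPM in WT-S (SD, n = 3), a log2 fold change of -0.13 with a 95% interval of -0.38 to 0.12 (adjusted p = 0.981, edgeR). Fa2h was 24.1 ± 2.78 CPM in WT-D and 21.7 ± 4.05 CPM in WT-S, and its log2 fold change of -0.15 had an interval of -0.43 to 0.14. Of the 9 log2 fold changes, 3 were positive (Mbp 0.06, Mag 0.07 and Mog 0.10) and the median was -0.08. Of all genes tested 0% were called, and of the 9 genes 0 were called by edgeR or DESeq2 and 0 had an unadjusted p under 0.05. WT-S replicate 1 was the lowest of its group for 9 of the 9 genes.

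A difference between these inhibitor effects was not shown. In the interaction of strain and treatment over the 15 libraries of 10 months, the difference of log2 fold changes (3xTg minus WT) was positive for each of the 9 genes, from 0.24 (Mog) to 0.47 (Fa2h), with a median of 0.27. Fa2h, at 0.47 ± 0.16 (SE), alone had an unadjusted p under 0.05 in edgeR (0.00960), a level that 2.32% of all genes tested reached. Its adjusted p was 1.00, as was that of each other gene, and 0% of all genes tested were called. DESeq2 called 0, with 2 at an unadjusted p under 0.05. The 2 libraries lowest in these genes at 10 months, 3xTg-D replicate 3 and WT-S replicate 1, each moved this result, with medians of 0.17 and 0.18 when left out. Averaged over strains, the inhibitor effect had a median log2 fold change of 0.12 with 9 positive, 2 at an unadjusted p under 0.05 (Mbp 0.20 and Mag 0.21, beside 13.8% of all genes tested) and 0 called by edgeR or DESeq2. Without 3xTg-D replicate 3 the median was 0.06 with 8 positive. The smallest adjusted p there was 0.3003 (edgeR), and 0% of all genes were called.

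**Figure D2:**
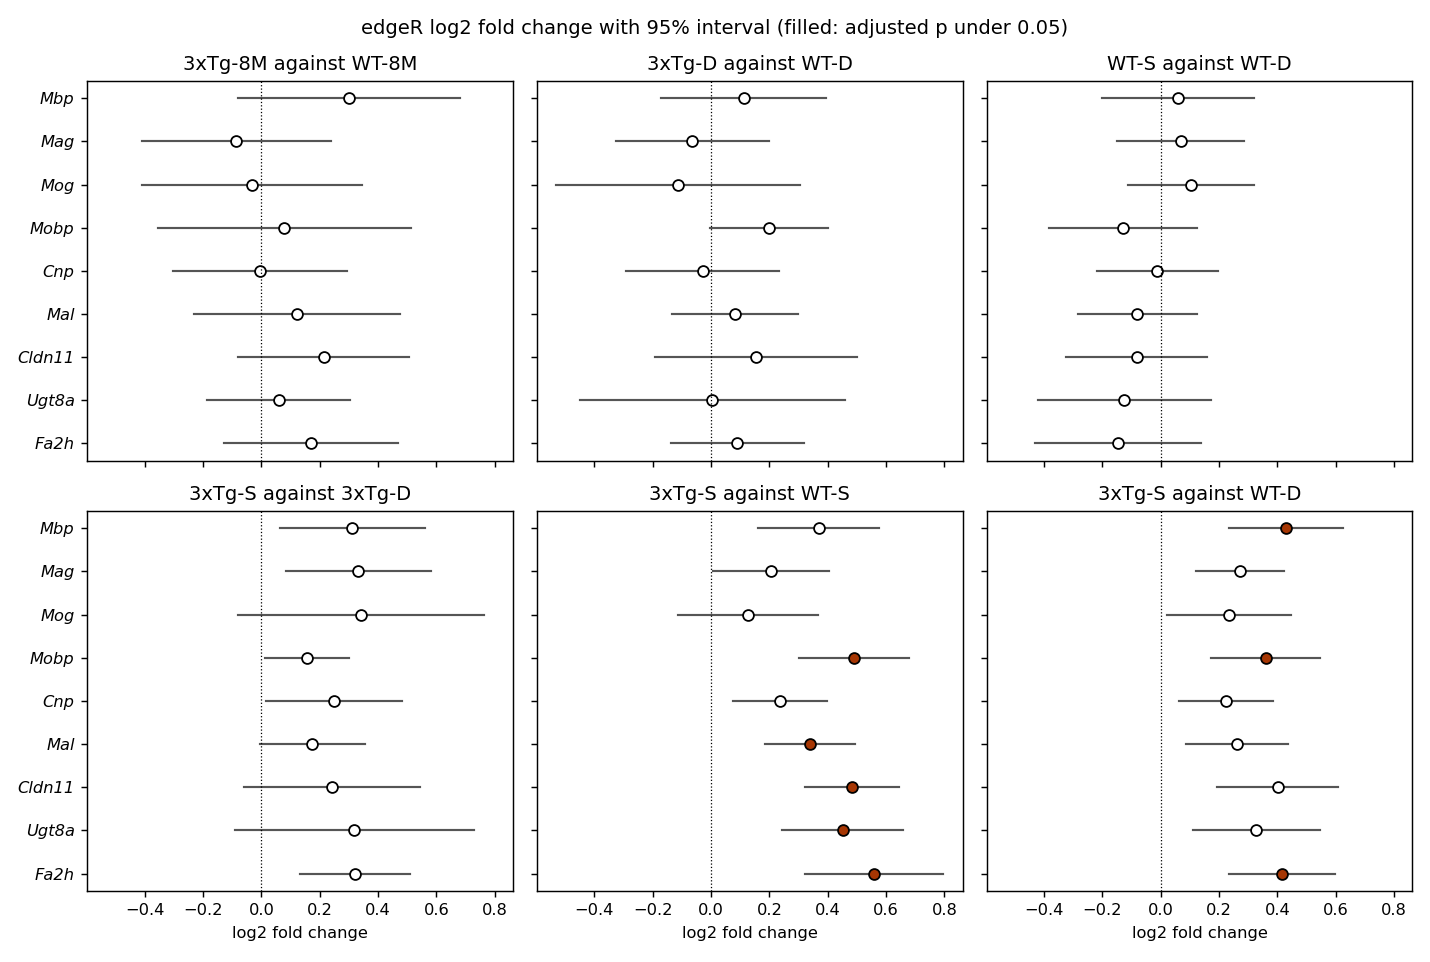
log2 fold change (x axes, edgeR, with 95% interval) of each myelin gene (y axes) in 6 comparisons of 2 groups. Filled points had an adjusted p under 0.05, which occurred for 5 genes in 3xTg-S against WT-S and 3 genes in 3xTg-S against WT-D. In 3xTg-S against 3xTg-D, the intervals of 5 genes lie above 0 with none called. All intervals of the remaining comparisons span 0.

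Between the strains under inhibitor, 5 of the 9 genes were called and all 5 were higher in 3xTg-S, where 0.613% of all genes tested were called higher. Cldn11, the tight junction protein, was 102 ± 7.53 CPM in WT-S (n = 3) and 142 ± 9.23 CPM in 3xTg-S (SD, n = 4). Single libraries read 93.0, 107 and 105 CPM against 143, 154, 133 and 137 CPM, with a clear gap between the groups. Its log2 fold change was 0.48 ± 0.07 (SE) at an adjusted p of 0.00580 (edgeR). Mobp read 568, 716 and 749 CPM in WT-S and 912, 994, 993 and 906 CPM in 3xTg-S, again without overlap, a log2 fold change of 0.49 ± 0.09 (SE) at an adjusted p of 0.0156 (edgeR).

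The lipid enzymes were also called in that comparison. Fa2h, the fatty acid hydroxylase, read 17.0, 23.996 and 24.1 CPM in WT-S against the 3xTg-S values above, a log2 fold change of 0.56 ± 0.11 (SE) at an adjusted p of 0.0275 (edgeR). Ugt8a, the galactosyltransferase, read 42.1, 56.9 and 48.3 CPM in WT-S and 70.4, 65.0, 63.1 and 70.0 CPM in 3xTg-S, a log2 fold change of 0.45 ± 0.10 (SE) at an adjusted p of 0.0441 (edgeR). Mal, the raft protein, read 175, 198 and 207 CPM in WT-S and 255, 258, 232 and 234 CPM in 3xTg-S, a log2 fold change of 0.34 ± 0.07 (SE) at an adjusted p of 0.0397 (edgeR). None of these 3 genes overlapped between the groups.

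Mbp, Mag, Mog and Cnp were not called between 3xTg-S and WT-S. Mbp was 2068 ± 314 CPM in WT-S and 2668 ± 171 CPM in 3xTg-S, a log2 fold change of 0.37 with a 95% interval of 0.16 to 0.58 (adjusted p = 0.114, edgeR). Cnp gave 0.24 with an interval of 0.08 to 0.40 (adjusted p = 0.210), and both genes had groups that did not overlap. Mag gave 0.20 (0.0050 to 0.40) and Mog 0.13 (-0.11 to 0.37), with overlapping groups. In all, 7 of the 9 genes did not overlap, against 5.36% of all genes tested that were higher without overlap. The median of the 9 log2 fold changes was 0.37, against 0.0037 over all genes tested. The count of 5 varied with the libraries kept. It was 2 without 3xTg-S replicate 1, 2 or 4, and 3 without WT-S replicate 1 or 3. Over all genes, higher or lower, the full fit called 206. Without 3xTg-S replicate 1, 2 or 4 the calls were 105, 170 and 114, and without WT-S replicate 1 or 3 they were 286 and 135. Blocking on sets of 4 animals numbered in a row left 1 called gene of the 9, Mobp, beside 199 of 16571 genes in all. Mobp was called in each of 13 alternatives.

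Against vehicle-treated WT mice, the 3xTg-S libraries were again higher. The called genes were 3, Mbp, Mobp and Fa2h, where 1.19% of all genes tested were called higher. Mbp read 1858, 2325, 1705 and 2069 CPM in WT-D, each below the lowest 3xTg-S library, and its log2 fold change was 0.43 ± 0.09 (SE) at an adjusted p of 0.0283 (edgeR). For Fa2h the WT-D libraries read 24.4, 27.9, 21.7 and 22.5 CPM and the log2 fold change was 0.41 ± 0.08 (SE) at an adjusted p of 0.0233 (edgeR). Mobp read 705, 896, 656 and 719 CPM in WT-D, the second of them close to the lowest 3xTg-S library at 906 CPM, with a log2 fold change of 0.36 ± 0.09 (SE) at an adjusted p of 0.0490 (edgeR).

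The remaining 6 genes had log2 fold changes from 0.22 (Cnp) to 0.40 (Cldn11, adjusted p = 0.0510) against WT-D. All 9 had an unadjusted p under 0.05 (16.9% of all genes tested did), 7 of 9 did not overlap (5.45% of all genes tested were higher without overlap), and the median was 0.33, against 0.0045 over all genes tested. Mog and Cnp overlapped. The count of 3 fell to 0 without WT-D replicate 3 or 3xTg-S replicate 1, 2 or 4, to 1 without WT-D replicate 4, and to 0 with the same block, whereas DESeq2 called 5. Over all genes, 356 of 15567 were called in the full fit, 382 of 16571 with the block and 587 of 30873 by DESeq2. Without WT-D replicate 3 or 4, 258 and 299 were called. Without 3xTg-S replicate 1, 2 or 4, 155, 291 and 226 were called. This comparison shares its 3xTg-S libraries with the comparisons above and its WT-D libraries with others, so their values are not independent of each other.

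In the fit of strain over both treatments at 10 months (15 libraries), Mobp was called. It was higher in 3xTg, with a log2 fold change of 0.33 ± 0.08 (SE) at an adjusted p of 0.00999 (edgeR), beside 3.18% of all genes tested that were called higher. Fa2h (0.31, adjusted p = 0.0628), Cldn11 (0.31, adjusted p = 0.0983), Mal (0.20, adjusted p = 0.108) and Mbp (0.23, adjusted p = 0.160) had an unadjusted p under 0.05, as did 19.6% of all genes tested, and were not called. Mag (0.06) and Mog (0.00077) were closest to 0. Without 3xTg-D replicate 3 the count rose from 1 to 6, in a fit that called 954 of 15795 genes.

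**Figure D3:**
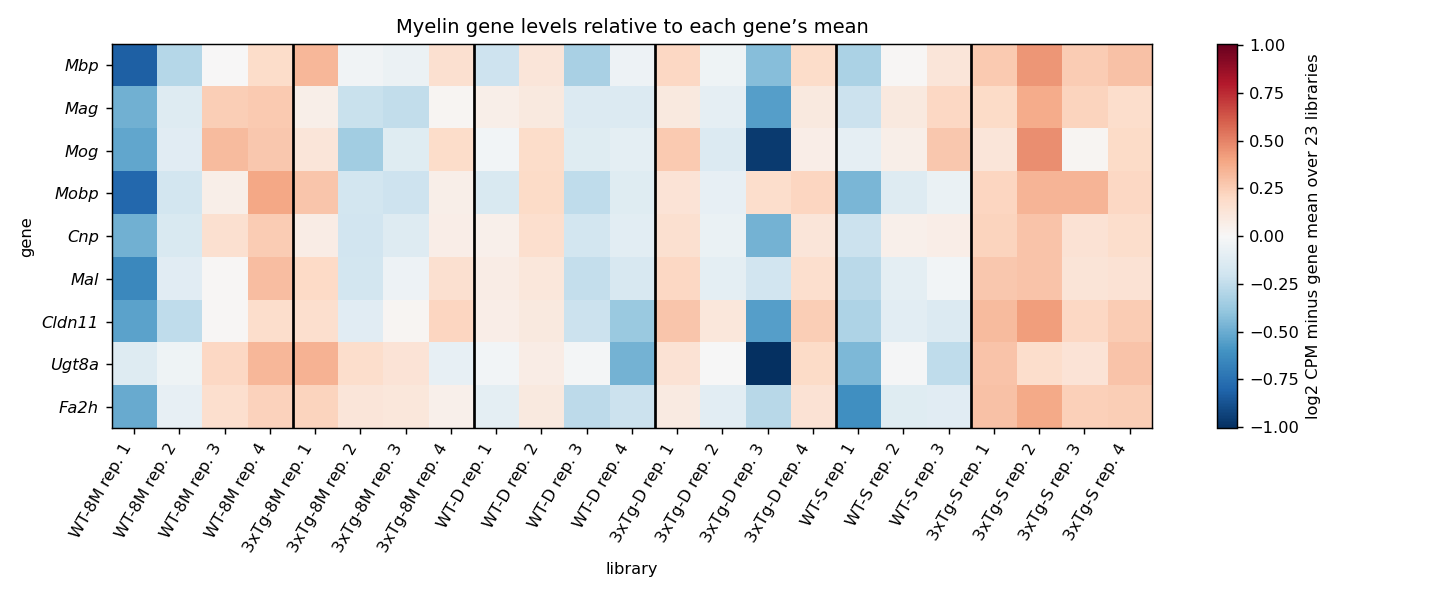
log2 CPM of each myelin gene (rows) in each of the 23 libraries (columns, ordered by group) after subtracting the gene's mean over the libraries, in colour. The columns of WT-8M replicate 1, 3xTg-D replicate 3 and WT-S replicate 1 are blue for most genes, with Mobp in 3xTg-D replicate 3 the exception, and the 4 columns of 3xTg-S are red or near white.

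Mice of 1 group differed more in the myelin genes than in most genes of like level. After group means were removed, the SD of log2 CPM ran from 0.21 (Fa2h) to 0.32 (Mog), against a median of 0.15 over 16553 genes. Among genes within 0.5 of the same log2 level these SDs stood at the 87.0th percentile for Mbp, where only 23 genes were of like level, and between the 92.5th (Fa2h) and 100th (Mobp) percentile for the others. The mean of the 9 genes was lowest in WT-8M replicate 1 (-0.55 on the log2 scale, relative to the mean over libraries), 3xTg-D replicate 3 (-0.47) and WT-S replicate 1 (-0.33). In the 3xTg-S libraries it ran from 0.19 to 0.35, with an SD of 0.07. The SD was 0.36 in WT-8M, 0.30 in 3xTg-D and between 0.14 and 0.18 in the other 3 groups.

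The genes rose and fell together among mice of a group. Over the 36 pairs, Pearson's r of log2 CPM with group means removed ran from 0.30 to 0.98 with a median of 0.85 (23 libraries, a description, since the points share libraries and their scaling). Mag and Cnp were the closest pair (r = 0.98), followed by Mbp with Cnp (0.95) and Cnp with Cldn11 (0.95). Mobp and Ugt8a were the most distant (0.30). Much of that distance came with 1 mouse, and without 3xTg-D replicate 3 their r was 0.59 and the lowest of any pair, 0.44, was that of Mog with Ugt8a. In 3xTg-D replicate 3, Ugt8a lay 0.84 and Mog 0.77 below their group means on the log2 scale, whereas Mobp lay 0.07 above.

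**Figure D4:**
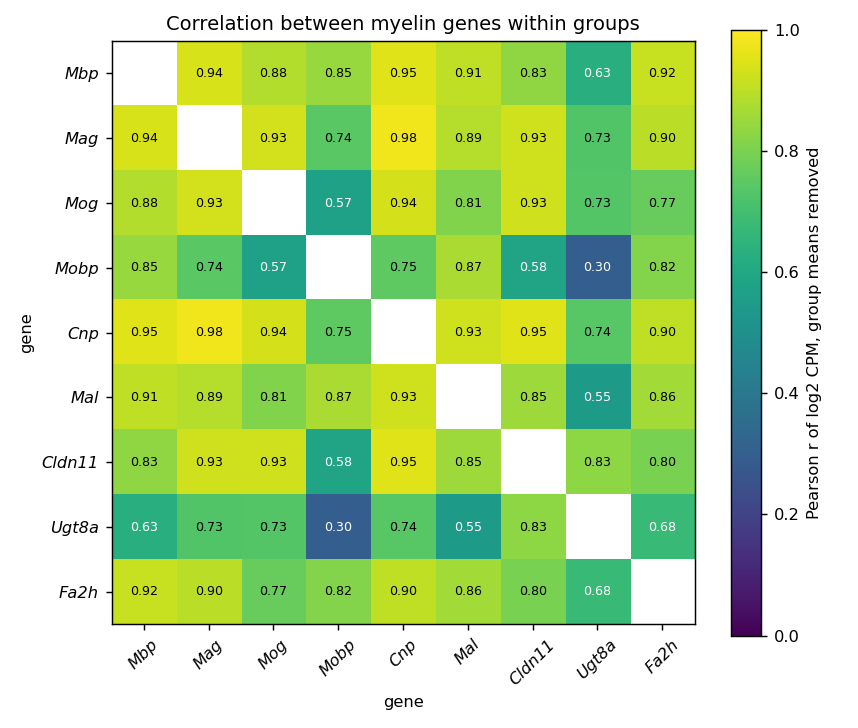
Pearson r between each pair of myelin genes (rows and columns) over the 23 libraries after removal of group means, in colour and as numbers. Cnp correlates at 0.90 or more with Mbp, Mag, Mog, Mal, Cldn11 and Fa2h, and the row of Ugt8a holds the lowest values.

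Outside the 9 genes, the closest patterns among 11641 genes with a mean of 5 CPM or more were those of other oligodendrocyte genes and some with wider expression. Bcas1, a marker of newly myelinating cells, had r = 0.96 and Spearman's rho = 0.89 with the mean of the 9 (group means removed, 23 libraries). Prr18 (r = 0.94), Efhd1 (0.93), Plekhb1 (0.92), the growth factor receptor gene Fgfr2 (0.92), the lineage transcription factor Olig1 (0.91), the sulfatase gene Arsg (0.91), the receptor gene Gpr37 (0.90), Ttyh2 (0.90) and the integrin gene Itgb4 (0.89) came next. The median r was 0.77 over the mature oligodendrocyte list, 0.60 over 8 microglial genes, 0.59 over newly formed oligodendrocyte genes, 0.10 over precursor genes and 0.03 over all 11641 genes.

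The rest of the mature oligodendrocyte list, 35 genes without the 9 above, gave smaller medians than the 9 genes in the 3 comparisons of 3xTg-S. In 3xTg-S against 3xTg-D, 34 were tested, 32 were positive and the median log2 fold change was 0.20, with 0 called. The largest were Klk6 (1.24, adjusted p = 0.388), a protease, and Opalin (0.65, adjusted p = 0.510, edgeR), a myelin surface protein. In WT-S against WT-D 17 of 35 were positive with a median of -0.0060, and Klk6 (0.36), Apod (0.32) and Cryab (-0.30) were the largest.

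Between 3xTg-S and WT-S, 2 of the 35 were called, both higher, and the median was 0.18. Trf, transferrin, which carries iron, was 220 ± 24.1 CPM in WT-S (n = 3) and 375 ± 23.9 CPM in 3xTg-S (SD, n = 4), a log2 fold change of 0.77 (adjusted p = 0.000205, edgeR). Cryab, a small heat shock protein, had a log2 fold change of 1.01 (adjusted p = 0.0186), a call lost in 5 of 13 alternatives. Against WT-D, 5 were called, all higher, with a median of 0.19, namely Trf (0.72), Klk6 (2.22), the lipocalin gene Apod (0.65), the septin-binding gene Anln (0.46) and Ermn (0.32), a cytoskeletal protein of late oligodendrocytes. Of 14 alternatives, Apod was not called in 5, Ermn in 3 and Anln in 2. Klk6 was low, at 3.07 ± 1.37 CPM in 3xTg-S against 0.642 ± 0.337 CPM in WT-D (SD, n = 4 each). In the other strain pairs the list had medians below 0 while those of the 9 genes were 0.08, with 14 of 35 positive and a median of -0.08 at 8 months and 13 of 35 positive and a median of -0.06 under vehicle. None of the list was called at 8 months, where the largest changes were Ninj2 (-1.07), Klk6 (0.92) and Opalin (-0.54), or under vehicle at 10 months, where they were Ninj2 (-1.27), Klk6 (0.98) and Apod (0.77). Over both treatments Trf (0.57), Anln (0.57), Cryab (0.68) and Klk6 (1.43) were called higher in 3xTg.

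Earlier stages of the lineage gave few calls. Of 12 precursor genes, 0 were called in any pair of groups, and 4 were positive in 3xTg-S against 3xTg-D (median -0.03). Their summed level was 685 to 884 CPM in 3xTg-S and 787 to 948 CPM in 3xTg-D. Over both treatments Susd5 was called lower (-0.35, adjusted p = 0.0330, edgeR). Of 8 genes of newly formed oligodendrocytes, 0 were called in the pairs, with medians of 0.13 and 0.14 in 3xTg-S against WT-S and WT-D, and Tns3 was called higher in 3xTg over both treatments (0.20, adjusted p = 0.0318).

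Among 9 transcription factors of the lineage, Zfp488 fell in 3xTg at 10 months. Zfp488 promotes oligodendrocyte differentiation, and it was low in all groups. It was 2.79 ± 0.162 CPM in 3xTg-D against 5.07 ± 0.651 CPM in WT-D (SD, n = 4 each), a log2 fold change of -0.85 (adjusted p = 0.0110, edgeR). Under inhibitor it was 5.21 ± 0.394 CPM in WT-S (n = 3) and 2.55 ± 0.449 CPM in 3xTg-S (n = 4), a log2 fold change of -1.03 (adjusted p = 0.0146). No other factor of the list was called in these pairs, and the medians of the 9 factors were -0.10 and -0.05.

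Genes for the lipids of myelin showed few calls. Of 8 genes of sphingolipid and galactolipid synthesis, 0 were called in any pair, with a median of 0.12 in 3xTg-S against WT-D and 0.05 in 3xTg-S against 3xTg-D. Of 12 cholesterol synthesis genes 0 were called in any pair, and Hmgcs1, which makes a precursor of mevalonate, was called higher in 3xTg over both treatments (0.29, adjusted p = 0.0115, edgeR). Asah1, an acid ceramidase, was the only 1 of 4 galactolipid breakdown genes called between 3xTg-S and WT-D (0.23, adjusted p = 0.0458), a call that 12 of 14 alternatives did not make. Over both treatments Asah1 was called higher in 3xTg (0.21, adjusted p = 0.00832, edgeR), a call lost in 0 of 6 alternatives. Of the desaturases, the family the inhibitor targets, Scd1 fell in 3xTg at 8 months, from 174 ± 6.40 CPM in WT-8M to 136 ± 11.96 CPM in 3xTg-8M (log2 fold change -0.35, adjusted p = 0.0208), and Scd3 fell there too (-0.99, adjusted p = 0.00615). Scd1 was also lower in 3xTg-S than in WT-D (-0.27, adjusted p = 0.0265), a call lost in 7 of 14 alternatives, as the one at 8 months was in 3 of 12. In 3xTg-S against 3xTg-D and in WT-S against WT-D, 0 of 5 tested desaturase genes were called.

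**Figure D5:**
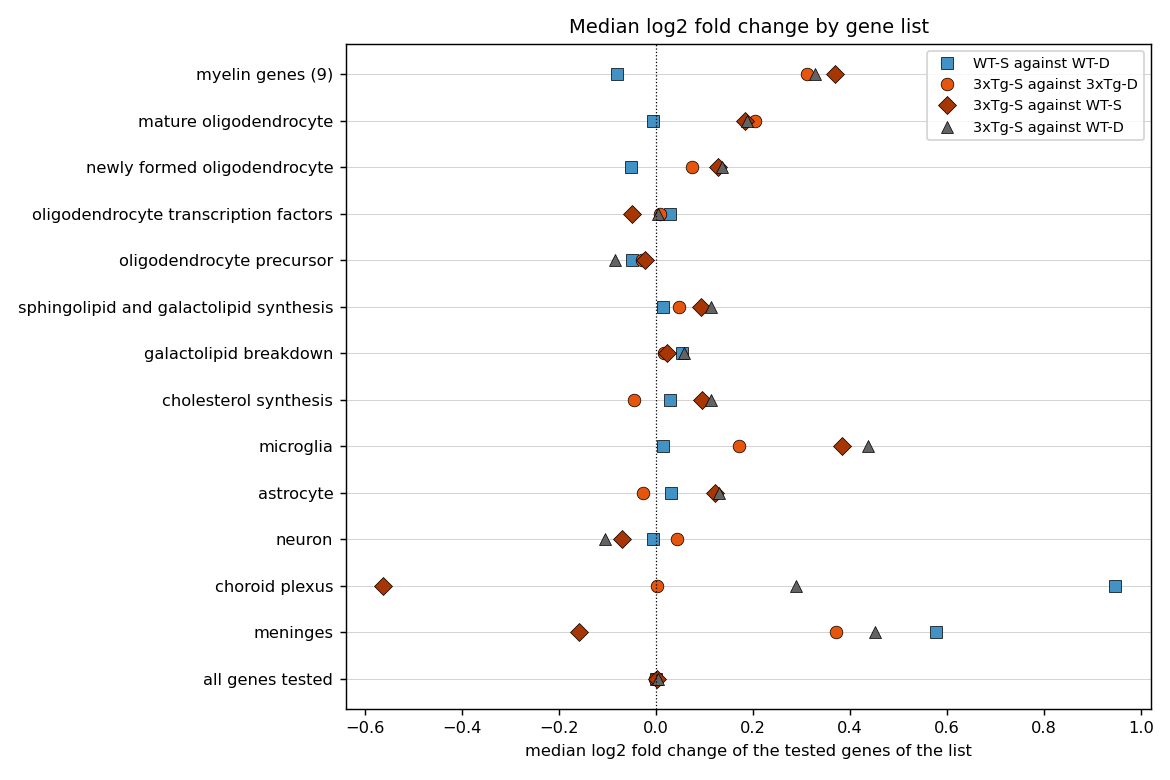
Median log2 fold change (x axis) over the tested genes of each list (y axis) in 4 comparisons that involve the inhibitor (symbols). The medians of the 9 myelin genes lie between 0.31 and 0.37 in the 3 comparisons of 3xTg-S and at -0.08 in WT-S against WT-D, and those of choroid plexus and meninges spread widely.

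Other cell types moved in the same comparisons. All 8 microglial genes were positive in 3xTg-S against WT-S (median 0.38), and those called included the complement genes C1qa (0.44, not called in 9 of 13 alternatives) and C1qb (0.54, not called in 2). Against WT-D the median was 0.44, and the called genes included Tmem119 (0.50, not called in 7 of 14 alternatives), C1qa (0.68) and C1qb (0.67). Their summed level was 436 to 549 CPM in 3xTg-S, 349 to 551 CPM in 3xTg-D, 351 to 403 CPM in WT-D and 372 to 392 CPM in WT-S. C1qa (0.49) and C1qb (0.48) were called under vehicle as well, each in 7 of 14 alternatives, and over both treatments Csf1r (0.29), C1qa, C1qb and Tmem119 were among those called. In 3xTg-S against 3xTg-D, all 8 microglial (median 0.17), 6 endothelial (0.17) and 5 ependymal genes (0.27) were positive. So were 6 of 7 meningeal genes (0.37), and none of these lists had a call. Astrocyte (4 of 8 positive), neuron (6 of 10) and thalamic genes (2 of 8) went both ways. The part of microglia and of the other cell types in the myelin result was not tested.

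Neurons and neighbouring tissue gave these values. The hippocampal gene C1ql2 was lower in 3xTg in each strain comparison (-1.04 at 8 months, -1.37 under vehicle and -1.45 under inhibitor), Wfs1 was lower in 3xTg-S than in WT-S (-0.50) and WT-D (-0.54), and Spink8 was higher in 3xTg at 8 months (1.52). Over both treatments Prox1 (-0.25) and the neurofilament gene Nefm (-0.19) were called lower and Spink8 (0.93) higher. Rgs9, a striatal gene, was lower in 3xTg at 8 months (-1.14) and over both treatments (-0.50). Astrocyte, endothelial, ependymal, thalamic and Schwann cell lists had 0 calls in the pairs. As a check of the labels, Thy1, whose element drives the transgenes, was 597 ± 47.0 CPM in WT-8M and 2131 ± 236 CPM in 3xTg-8M, and App was called higher in 3xTg in 3 of the 4 strain pairs, that of 3xTg-S with WT-D being lost in 6 of 14 alternatives.

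Choroid plexus genes summed to 253 to 582 CPM in 3xTg-S, 231 to 788 CPM in WT-S and 220 to 247 CPM in WT-D, and 0 of this list were called. Meningeal genes summed to 182 to 894 CPM in 3xTg-S, 304 to 1091 CPM in WT-S and 260 to 530 CPM in WT-D, also with 0 called. Thalamic genes summed to 157 to 183 CPM in 3xTg-S, 165 to 189.8 CPM in WT-S and 179.8 to 197 CPM in WT-D. The slope of a library's deviations on log2 gene length was -0.12 to -0.0036 in 3xTg-S, 0.014 to 0.040 in WT-D, 0.018 to 0.057 in 3xTg-D and -0.054 to 0.0035 in WT-S, so that 3xTg-S lay below both vehicle groups. With length and GC trends removed (an alternative added after seeing the data), the median of the 9 genes was 0.33 against WT-D, 0.36 against WT-S and 0.26 against 3xTg-D, and 4, 4 and 0 were called. Over all genes, these fits called 411 of 15558, 236 of 15655 and 0 of 15521. The part of tissue carried along at dissection was not tested.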

How the data were processed

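The deposited values were whole-number counts of reads per gene, made by the authors from single-end libraries with Trimmomatic 0.35 and STAR 2.5.1b on GRCm38 (Gencode annotation), with no normalization. Handling of strand and molecular identifiers is not given in the sources used here, and reads shared with overlapping genes cannot be separated. Lines naming no gene (24.7% to 30.9% of each column) were left out. No 2 libraries held identical values, and r between libraries of a group was 0.984 to 0.993 over genes.

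For each pair of groups, edgeR 4.0.16 (R 4.3.3) with its default filter on low counts, TMM scaling and the quasi-likelihood F-test was run over all genes, and genes at a Benjamini-Hochberg adjusted p under 0.05 were called. Fits over 15 libraries of 10 months gave the interaction and the averages over strains or treatments. The study's own procedure, the TCC package with DEGES normalization and a DESeq2 test at an unadjusted p under 0.01, was not run. The alternatives nearest to it were the likelihood ratio test of DESeq2 1.42.0 at the same adjusted p and a threshold of 0.01 on edgeR's unadjusted p. log2 CPM had a prior count of 2. Length per gene came from the Gencode annotation at hand, which places the 9 genes at the positions of the table. The scripts were tested on simulated data.

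The 9 genes, the gene lists and the tests were chosen with earlier results of these data known. Lists were written from general knowledge. Named are the 9 genes, list genes called in a comparison (otherwise the 3 mature oligodendrocyte genes with the largest change), and the 10 genes whose pattern was most like the mean of the 9. Labels give no replicate numbers, so replicates are numbered by accession order. P-values measure the spread between single mice. Some genes and alleles that this rule or the labels name are not reported here.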

Additional observations from a re-analysis of the deposited data

Results flagged for a closer look

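Mbp in 3xTg-S replicate 2 stood apart from its group, at 2921 CPM against 2563 to 2624 CPM in the other 3 libraries, with a Dixon ratio of 0.830. It was the only 1 of 45 sets of 4 libraries in which a library stood apart in this way, and chance flags about 1 in 20. The same library was the highest of all for Mag, Mog, Cnp, Cldn11 and Fa2h. Its slope on gene length was -0.12, its choroid plexus sum 582 CPM and its precursor sum 685 CPM, and their part in the Mbp value was not tested.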

How the results depend on the processing

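In the 3 comparisons of 3xTg-S with WT-S, WT-D and 3xTg-D, the log2 fold changes of the 9 genes were positive under each alternative run (117 of 117, 126 of 126 and 126 of 126 values), whereas the counts of called genes moved. These values are refits of the same libraries for genes that moved together, so they are not independent of each other. Between 3xTg-S and WT-S, 5 called genes became 2 in 1 fit over the 15 libraries and 1 with the block of animal numbers, and leaving out 1 library gave 2 to 5. Between 3xTg-S and WT-D, 3 became 8 at edgeR's unadjusted p under 0.01, 7 without a filter on low counts, 5 by DESeq2, 1 in the fit over 15 libraries and 0 with the block, and leaving out 1 library gave 0 to 4. Between 3xTg-S and 3xTg-D, 0 became 1 at p under 0.01 and 2 without the filter. The unfiltered fit called 112 of 30702 genes in all, where the main fit called 0 of 15530. Shares of all genes at p under 0.01 are not given for any comparison. The interaction went from 0 to 1 at p under 0.01. For strain over both treatments, 1 became 3 at p under 0.01, 5 without the filter, 2 by DESeq2 and 2 with length and GC trends removed (added after seeing the data), and leaving out 1 of 2 libraries low in these genes (also added) gave 1 to 6. These settings also moved the calls over all genes, not always in the same direction as the count of the 9. For 3xTg-S against WT-D they were 356 of 15567, 1135 of 30873 without the filter and 587 of 30873 by DESeq2. In the fit over 15 libraries they were 431 of 16262, and with the block 382 of 16571. For 3xTg-S against WT-S they were 206 of 15664, 211 of 16262 over 15 libraries and 199 of 16571 with the block. For strain over both treatments they were 1003 of 15864, 1554 of 32968 without the filter and 1284 of 32968 by DESeq2. The latter fit called 1227 of 15855 with trends removed and 954 of 15795 without 3xTg-D replicate 3. The cause was not tested. No other setting moved the count of called genes by over 1.5 times. With 3 or 4 mice a group, the depth of at least 222 reads per gene limited most of these values less than the spread between mice. Fa2h was an exception in 3xTg-S (415 to 534 reads) and 3xTg-8M (374 to 980 reads). Its coefficient of variation between mice there, 4.77% and 5.07%, was of like size to the counting error.

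Values near 0 changed sign with the mice kept. Leaving out 1 library at a time, the log2 fold change of 3xTg-8M against WT-8M ranged from -0.23 to 0.0065 for Mag, -0.19 to 0.077 for Mog, -0.11 to 0.26 for Mobp, -0.14 to 0.093 for Cnp, -0.035 to 0.27 for Mal and -0.021 to 0.14 for Ugt8a. For 3xTg-D against WT-D it ranged from -0.13 to 0.075 for Mag, -0.27 to 0.099 for Mog, -0.10 to 0.10 for Cnp and -0.10 to 0.23 for Ugt8a, which was -0.064 with trends removed and -0.012 with the block. For WT-S against WT-D the ranges were -0.020 to 0.17 for Mbp, -0.012 to 0.18 for Mag (-0.0029 with trends removed) and -0.067 to 0.069 for Cnp (0.030 with the block). In the fits over more than 2 groups only libraries low in these genes were left out. There, over both strains, Ugt8a ranged from -0.0063 to 0.18. Over both treatments Mog ranged from -0.040 to 0.11 and was -0.00074 without the filter and -0.0071 with trends removed. The strain effect by cohort ranged from 0.078 to 0.12 for Mog, 0.096 to 0.11 for Cnp (0.042 with trends removed), 0.025 to 0.11 for Mal, 0.063 to 0.099 for Cldn11, 0.023 to 0.16 for Ugt8a and -0.0052 to 0.068 for Fa2h. The labels give no replicate numbers shared between groups, so none served as a block. The block above is for sets of 4 animal numbers in a row in the 10-month titles, which no label names as a batch.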
